A study of Mus musculus with 9 samples.

Results

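Phase II conjugation enzymes attach a polar group to foreign compounds and to the cell's own hormones, bile acids and oxidized lipids, which makes them easier to export. Glutathione S-transferases (Gst and Mgst genes) add glutathione, UDP-glucuronosyltransferases (Ugt genes) add a sugar, and sulfotransferases (Sult genes) add sulfate from the donor PAPS. All these families are prominent in liver, where many members have been described as targets of the factors NRF2, AHR, CAR, PXR or PPAR-alpha. The genes described here are those of the Gst, Mgst, Ugt1a, Ugt2, Ugt3 and Sult families whose array feature carries a single gene symbol. They number 52 of the 22180 genes tested: 17 cytosolic Gst genes of the alpha, mu, pi, theta and omega classes, Gstk1 with 3 Mgst genes, 10 Ugt2 and Ugt3 genes and 21 Sult genes. The Ugt1a family has 0 members here, because both of its features carry several symbols. Gsta1, Gsta2, Gstz1, Gstm5, Ugt2a1 and Ugt2a2 are left out for the same reason, and their shared features are described in the closing sections.

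The cells were TAMH, a mouse hepatocyte line derived from mice carrying a transgene for transforming growth factor alpha, and therefore a single immortalized line and not primary liver. All groups shared the same medium, which contained dexamethasone, a glucocorticoid, together with nicotinamide, insulin, transferrin and selenium, and passages lay between 30 and 40. Controls (CON) received medium alone, the DQ group received diquat at 18 µM and the PQ group received paraquat at 126 µM, each for 9 h and with 3 arrays. Both herbicides are bipyridylium compounds that pass single electrons to oxygen inside cells. Their doses differ, so a difference between them is one between these treatments and not between equal amounts. Each treatment had 3 dishes per the labels, which do not describe them as independent cultures. The p-values here set the difference between group means against the spread of these samples only, and that spread may be technical.

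Values are deposited log2 signals, with array medians from 5.95 to 6.04. Diquat replicate 3 lay farthest from its group mates over all genes, with a root-mean-square log2 difference of 0.134, where the others had 0.0714 to 0.115. Over the conjugation genes alone the figure was 0.137 for that array and 0.133 for paraquat replicate 1. Of 14 hepatocyte markers 13 were measured, and 9 of these lay above the median of all features, with Alb at 12.73 in each group. Cyp2e1, Cyp3a11, Cyp7a1 and Asgr1 lay below that median. All 6 measured markers of bile duct and progenitor cells lay above it, as did 3 of 5 immune, 1 of 5 endothelial and 3 of 5 stellate markers.

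The features of these genes spanned a wide range of signal, which also depends on how well each feature's probes bind. Of the 52 conjugation genes, 22 had a mean above the median of feature means, 6.0, and 30 lay at or below it. Cytosolic Gst genes made up 15 of the 22, and Gstk1 and the 3 Mgst genes made up 4 more. Sult1a1 and Sult1c2 were the 2 Sult genes above it, and Ugt2b34 was the 1 Ugt gene. Dim values cannot be told from background without detection calls, which were not used here.

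With diquat, 7 of the 52 genes fell and 0 rose at an adjusted p under 0.05, against 7.02% of all genes called, 2.89% lower and 4.13% higher. At an unadjusted p under 0.05 the count was 15 (28.8%), against 21.6% of all genes. The 7 were Gstt1, Gstt2, Gstk1, Mgst3, Sult1a1, Sult1c2 and Sult1d1, and their falls ranged from Mgst3 at 1.12-fold to Gstt2 at 1.42-fold. They made up 13.5% of the 52 genes. Features with several symbols are not in these counts. Of those, 17519658 and 17519673, annotated to Gsta1, Gsta2 and other genes, rose by 0.49 and 0.58 with diquat. Their adjusted p-values were 0.00399 and 0.00138 in limma over all features. The feature annotated to Gstz1 and Pomt2 changed by -0.38 (0.00616). Among the 22 genes above the median, 6 fell (27.3%), against 4.58% of all genes above it that were called lower and 6.86% called higher. The median change of the 52 was -0.02 on the log2 scale, the same as over all genes. The 3 diquat arrays lay apart from the 3 control arrays for 15 of the 52 genes, 5 higher and 10 lower, against 21.3% of all genes, 10.1% higher and 11.2% lower. A fall in every cell and a fall in part of the cells cannot be told apart in these lysates. Without control replicate 2 the count dropped to 4. With each array centred on its median, 5 of the 7 falls kept their call, Mgst3 (adjusted p 0.0886) and Sult1c2 (0.0890) lost it, and Gstp1 and Gstm3 were called higher. With quantile normalization there were 2 higher and 7 lower.

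With paraquat, 7 genes fell and 2 rose, against 4.57% of all genes called, 2.24% lower and 2.33% higher. Gstm7 joined the falls and Mgst3 left them, and the genes that rose were Gsto2 and Gstp3. The called genes made up 17.3% of the 52, and 15 (28.8%) passed at an unadjusted p under 0.05, against 15% of all genes. Among the 22 genes above the median, 8 were called (36.4%, 2 higher and 6 lower), against 7.54% of all such genes, 3.87% higher and 3.66% lower. The median change of the 52 was -0.02, against 0 over all genes. Paraquat and control arrays lay apart for 17 genes, 5 higher and 12 lower, against 19.4% of all genes, 9.05% higher and 10.4% lower. The count was 5 without paraquat replicate 2 and 5 without paraquat replicate 3. Both treatments were set against the same 3 control arrays, so the calls are not independent of each other. By count, 6 genes were called in both comparisons, all lower (1.61% of all genes were). These are 85.7% of the diquat calls and 66.7% of the paraquat calls among the 52. Sharing was common over all genes too, where 444 were called higher in both and 357 lower, of 1558 diquat calls and 1014 paraquat calls. Of the 52, 1 was called with diquat alone and 3 with paraquat alone, and 42 were called in neither.

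**Figure D1:**
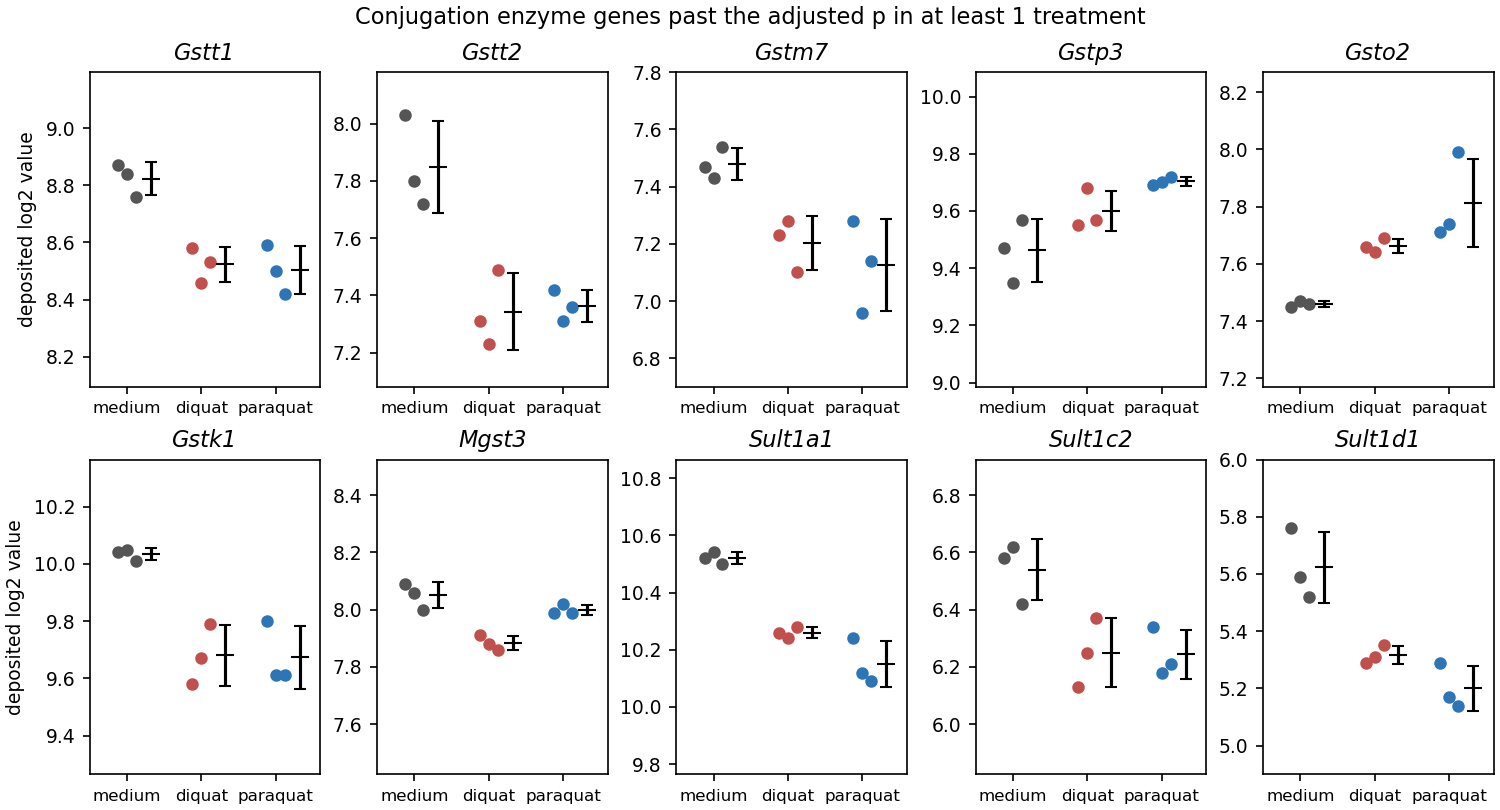
Log2 signal on the vertical axis of every array for the 10 genes called with diquat or paraquat, 1 panel per gene, with a point per array and a bar at each group mean (3 arrays each). In the panels for Gstt1, Gstt2, Gstm7, Gstk1, Sult1a1, Sult1c2 and Sult1d1 all treated arrays sit below all control arrays. In the panel for Gsto2 all treated arrays sit above all control arrays.

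The sequence upstream of the start site is shown for the genes called in both comparisons for which RefSeq promoter windows were at hand, and, as examples of windows with a match among genes called in a single comparison, for Gstm7 and Gstp3. Each window runs from 250 bases before to 50 bases after the annotated start in GRCm38.p6, on the strand of the gene, 5′ to 3′. Capitals mark matches on either strand to TGACNNNGC, the core of the antioxidant response element that NRF2 with small MAF proteins binds, to GCGTG, the core of the xenobiotic response element of AHR, to TGATGNAAN, the composite CEBP-ATF element, or to GTTAATNAT, the HNF1 element. The windows are Gstt1 at chr10:75797682-75797981 on the minus strand, Gstk1 at chr6:42245685-42245984 on the plus strand, Sult1a1 at chr7:126676369-126676668 on the minus strand. They are followed by Sult1c2 at chr17:53845909-53846208 on the minus strand, Sult1d1 at chr5:87568957-87569256 on the minus strand. The last are Gstm7 at chr3:107931565-107931864 on the minus strand and Gstp3 at chr19:4059398-4059697 on the minus strand.
Gstt1: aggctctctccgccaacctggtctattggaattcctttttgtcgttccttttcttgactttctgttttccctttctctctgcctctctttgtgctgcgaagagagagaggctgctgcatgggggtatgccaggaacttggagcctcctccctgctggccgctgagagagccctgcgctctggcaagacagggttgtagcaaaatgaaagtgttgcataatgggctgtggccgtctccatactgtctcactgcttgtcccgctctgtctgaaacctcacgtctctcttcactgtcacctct
Gstk1: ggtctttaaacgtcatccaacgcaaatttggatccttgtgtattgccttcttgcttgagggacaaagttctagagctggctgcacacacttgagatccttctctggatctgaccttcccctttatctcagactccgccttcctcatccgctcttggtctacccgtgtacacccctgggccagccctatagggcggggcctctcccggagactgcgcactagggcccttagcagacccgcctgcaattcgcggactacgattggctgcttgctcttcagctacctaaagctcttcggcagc
Sult1a1: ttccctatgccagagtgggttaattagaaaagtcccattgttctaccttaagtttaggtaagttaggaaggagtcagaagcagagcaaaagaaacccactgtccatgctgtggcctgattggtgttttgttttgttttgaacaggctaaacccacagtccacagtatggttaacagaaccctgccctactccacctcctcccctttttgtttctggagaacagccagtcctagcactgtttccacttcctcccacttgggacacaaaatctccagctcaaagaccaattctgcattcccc
Sult1c2: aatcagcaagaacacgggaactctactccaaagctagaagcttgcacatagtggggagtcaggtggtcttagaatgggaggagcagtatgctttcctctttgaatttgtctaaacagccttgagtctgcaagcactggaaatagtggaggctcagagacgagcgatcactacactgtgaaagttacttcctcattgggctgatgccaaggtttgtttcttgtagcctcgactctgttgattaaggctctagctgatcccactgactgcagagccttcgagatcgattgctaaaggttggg
Sult1d1: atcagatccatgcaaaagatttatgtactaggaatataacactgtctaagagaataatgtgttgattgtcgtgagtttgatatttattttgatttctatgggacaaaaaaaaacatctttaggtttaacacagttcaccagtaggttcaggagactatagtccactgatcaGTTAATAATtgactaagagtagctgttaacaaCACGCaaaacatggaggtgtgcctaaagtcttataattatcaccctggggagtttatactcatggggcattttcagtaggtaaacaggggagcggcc
Gstm7: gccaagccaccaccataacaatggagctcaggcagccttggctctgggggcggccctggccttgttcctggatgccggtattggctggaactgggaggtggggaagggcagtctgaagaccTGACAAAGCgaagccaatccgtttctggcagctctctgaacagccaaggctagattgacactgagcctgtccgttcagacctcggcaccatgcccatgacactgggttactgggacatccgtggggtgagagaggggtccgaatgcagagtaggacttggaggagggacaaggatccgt
Gstp3: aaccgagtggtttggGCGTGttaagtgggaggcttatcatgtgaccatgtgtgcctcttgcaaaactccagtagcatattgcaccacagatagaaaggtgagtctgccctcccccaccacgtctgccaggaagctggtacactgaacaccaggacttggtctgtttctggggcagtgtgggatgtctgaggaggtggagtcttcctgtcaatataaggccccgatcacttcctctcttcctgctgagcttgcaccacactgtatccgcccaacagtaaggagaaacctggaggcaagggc
The windows of Gstt1, Gstk1, Sult1a1 and Sult1c2 held no match to any of the 4 motifs, which says only that those letters are not in these 300 bases. The windows shown for Sult1d1, Gstm7 and Gstp3 each held at least 1, as their capitals show. Gstm7 has another window, not printed, with no match. Of the other genes called in a single comparison, both windows of Gsto2 held no match and the window of Mgst3 held GCGTG, and these are not printed either. The HNF1 match of Sult1d1 starts 79 bases before the start, and the GCGTG match of Gstp3 starts 235 bases before it. The window of Sult1a1 contained 0 CG pairs, against a median of 3 over the windows of the conjugation genes and 7 over all windows.

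Over the family, 45 of the 52 genes were matched to 56 windows. The antioxidant core was present in 3 of 45 genes, Gsta3, Gstm7 and Mgst1 (6.67%), against 12.4% of all 32851 windows. The xenobiotic core was present in 7 of 45 (15.6%), against 32.4%. The CEBP-ATF element was present in 1, Sult1e1, against 3.95%, and the HNF1 element in 5 (11.1%), against 0.801%. Those 5 were Sult1d1 and the neighbouring copies Sult2a3, Sult2a4, Sult2a5 and Sult2a6, which share much of their sequence. A gene can have several windows, and the windows of these genes had a lower median GC content, 46.5% against 52.7%, so the shares are descriptions. The motifs were chosen after the values had been seen.

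The theta class, whose enzymes conjugate small halogenated compounds, included the largest fall among the 52 genes. Gstt2 (feature 17241954) read 8.03, 7.80 and 7.72 in medium, 7.31, 7.23 and 7.49 with diquat and 7.42, 7.31 and 7.36 with paraquat. Every treated array was below every control array. The log2 change was -0.51 ± 0.08 (SE) with diquat, a 1.42-fold fall at an adjusted p of 0.00601, and -0.49 ± 0.08 with paraquat, a 1.40-fold fall at 0.00917. Gstt1 (feature 17241934) read 8.87, 8.84 and 8.76 in medium, 8.58, 8.46 and 8.53 with diquat and 8.59, 8.50 and 8.42 with paraquat. Again the treated arrays were all lower, by 1.23-fold with diquat (log2 -0.30 ± 0.05, adjusted p 0.00790) and 1.25-fold with paraquat (log2 -0.32 ± 0.05, adjusted p 0.00695). The calls for Gstt1 were kept under all 15 alternative settings, and Gstt2 lost its paraquat call without paraquat replicate 2 (adjusted p 0.0511).

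The other theta genes were not called. Gstt3 read 7.13, 6.98 and 7.14 in medium, 6.98, 6.92 and 6.98 with diquat and 6.97, 6.89 and 6.95 with paraquat, and control replicate 2 lay level with the highest diquat arrays. Its change was -0.12 with diquat (adjusted p 0.178) and -0.15 with paraquat (0.154). Gstt4 changed by -0.12 and -0.08. In the RefSeq order the 4 theta genes stand next to each other as Gstt3, Gstt1, Gstt4 and Gstt2, between Ddt and Mif, so the called genes were not adjacent to each other.

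The mu class, a group of close copies with broad activity toward epoxides, gave 1 call among 6 genes. That call came with paraquat (16.7%, against 4.57% of all genes), and 0 came with diquat (against 7.02%). Gstm7 (feature 17409099) read 7.47, 7.43 and 7.54 in medium, 7.23, 7.28 and 7.10 with diquat and 7.28, 6.96 and 7.14 with paraquat. Both treated groups lay below the controls without overlap. The change was -0.35 ± 0.08 with paraquat (1.28-fold, adjusted p 0.0279) and -0.28 ± 0.08 with diquat, where it was not called (adjusted p 0.0613). The paraquat call was lost in 6 of 15 settings: with the compared groups alone, and without each of control replicates 1, 2 and 3 and paraquat replicates 2 and 3 in turn, with an adjusted p of up to 0.104.

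Gstm3 differed in the other direction in the diquat arrays. It read 6.29, 6.18 and 6.41 in medium, 6.53, 6.50 and 6.47 with diquat and 6.34, 6.36 and 6.28 with paraquat. The diquat arrays were all above the controls and the paraquat arrays lay among them. The change was 0.21 ± 0.05 with diquat (adjusted p 0.0517) and 0.03 with paraquat (0.882). With diquat it passed under 5 settings, among them centred arrays (0.0276) and quantile normalization (0.0222). Gstm1, a main mu enzyme of mouse liver, read 7.87, 7.83 and 7.86 in medium, 7.86, 7.91 and 7.86 with diquat and 7.96, 7.67 and 7.74 with paraquat. Its groups overlapped, and its changes were 0.02 and -0.06. The other 3 mu genes, Gstm2 (-0.03 and -0.13), Gstm4 (-0.17 and -0.26) and Gstm6 (-0.03 and 0.00), were not called. Gstm7 and Gstm3 lie in a row of 7 mu genes between Eps8l3 and Ampd2, with Gstm6 between them.

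The pi class, abundant detoxifying enzymes that also bind stress kinases, had higher means in both treatments for all 3 genes. Gstp3 (feature 17361090) read 9.47, 9.35 and 9.57 in medium, 9.55, 9.68 and 9.57 with diquat and 9.69, 9.70 and 9.72 with paraquat. The paraquat arrays all exceeded the controls, and the diquat arrays overlapped them. The rise with paraquat was 0.24 ± 0.06 (1.18-fold, adjusted p 0.0401), and the diquat value of 0.14 was not called (0.198). The paraquat call was lost in 8 of 15 settings. These were the replicate block (0.0731), quantile normalization (0.0539), the compared groups alone (0.0614) and the fits without control replicate 1 or 2 or any 1 paraquat array (up to 0.146).

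Gstp1, the brightest feature of the 52, read 11.40, 11.42 and 11.49 in medium, 11.69, 11.73 and 11.58 with diquat and 11.81, 11.53 and 11.66 with paraquat. Gstp2 read 9.21, 9.06 and 8.97 in medium, 9.26, 9.26 and 9.38 with diquat and 9.34, 9.26 and 9.27 with paraquat. For both genes every treated array lay above every control array, yet neither was called. Gstp1 changed by 0.23 with diquat (adjusted p 0.0774) and 0.23 with paraquat (0.103), and Gstp2 by 0.22 (0.0620) and 0.21 (0.0984). Gstp1 passed with diquat when arrays were centred (0.0431), when dim genes were left out (0.0487) and with array weights (0.0372). It passed with paraquat with array weights (0.0300) and without paraquat replicate 2 (0.0450). Gstp2 was not followed by name through the settings, so whether it passed in any of them is not given here. With dim genes left out, 3 of the conjugation genes were called higher with diquat, and Gstp1 and Gstm3 were those followed by name. The 3 pi genes are neighbours between Ndufv1 and Cabp2 and are close copies, so the share of signal that each feature takes from the others is uncertain.

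Among the omega genes, which reduce dehydroascorbate and arsenicals, Gsto2 (feature 17360225) had the largest rise with paraquat of the 52 genes, while with diquat Gstp1, Gstp2 and Gstm3 had higher values. It read 7.45, 7.47 and 7.46 in medium, 7.66, 7.64 and 7.69 with diquat and 7.71, 7.74 and 7.99 with paraquat. The groups did not overlap, and paraquat replicate 3 stood highest. The rise was 0.35 ± 0.06 with paraquat (1.28-fold, adjusted p 0.0119) and 0.20 ± 0.06 with diquat (1.15-fold, not called at 0.0977). The paraquat call was lost without control replicate 1 (0.0529), and the diquat value passed when only the compared groups were fitted (0.0180). Gsto1, its neighbour, changed by 0.05 and 0.02.

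Neither alpha gene with a feature of its own was called. Gsta3, known for conjugating the aflatoxin epoxide in mouse, read 9.36, 9.30 and 9.35 in medium, 9.10, 9.20 and 9.34 with diquat and 9.24, 9.20 and 9.06 with paraquat. The paraquat arrays were all below the controls and the diquat arrays overlapped them, with changes of -0.17 (adjusted p 0.226) and -0.12 (0.308). Gsta4, which conjugates the lipid peroxidation product 4-hydroxynonenal, changed by -0.05 with diquat (0.684) and -0.10 with paraquat (0.576).

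Gstk1, the kappa transferase of mitochondria and peroxisomes, fell with both herbicides. Feature 17457876 read 10.04, 10.05 and 10.01 in medium, 9.58, 9.67 and 9.79 with diquat and 9.80, 9.61 and 9.61 with paraquat. The controls spanned a narrow range above all treated arrays. The fall was 1.28-fold with each, at log2 -0.35 ± 0.06 with diquat (adjusted p 0.00901) and -0.36 ± 0.06 with paraquat (0.0100). The paraquat call was lost without control replicate 2 (0.0502), paraquat replicate 2 (0.0541) or paraquat replicate 3 (0.0535).

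The microsomal transferases are membrane enzymes, of which Mgst2 and Mgst3 can also make leukotriene C4 or reduce lipid peroxides. Mgst3 (feature 17229403) read 8.09, 8.06 and 8.0 in medium, 7.91, 7.88 and 7.86 with diquat and 7.99, 8.02 and 7.99 with paraquat. The diquat arrays were all lower, by -0.17 ± 0.04 on the log2 scale (adjusted p 0.0218), while the paraquat arrays overlapped the controls (-0.05, adjusted p 0.632). The diquat call was lost with centred arrays (0.0886), with the compared groups alone (0.0595) and without control replicate 1 (0.0912), control replicate 2 (0.0851) or diquat replicate 3 (0.0504). Mgst2 read 7.73, 7.64 and 7.57 in medium, 7.40, 7.49 and 7.52 with diquat and 7.54, 7.45 and 7.38 with paraquat. All treated arrays were below all controls, and neither value was called (-0.18, adjusted p 0.0977, and -0.19, 0.102). Mgst1, the most general peroxidase of the group, changed by 0.01 with each, with intervals from -0.10 to 0.12 for diquat and -0.11 to 0.12 for paraquat.

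**Figure D2:**
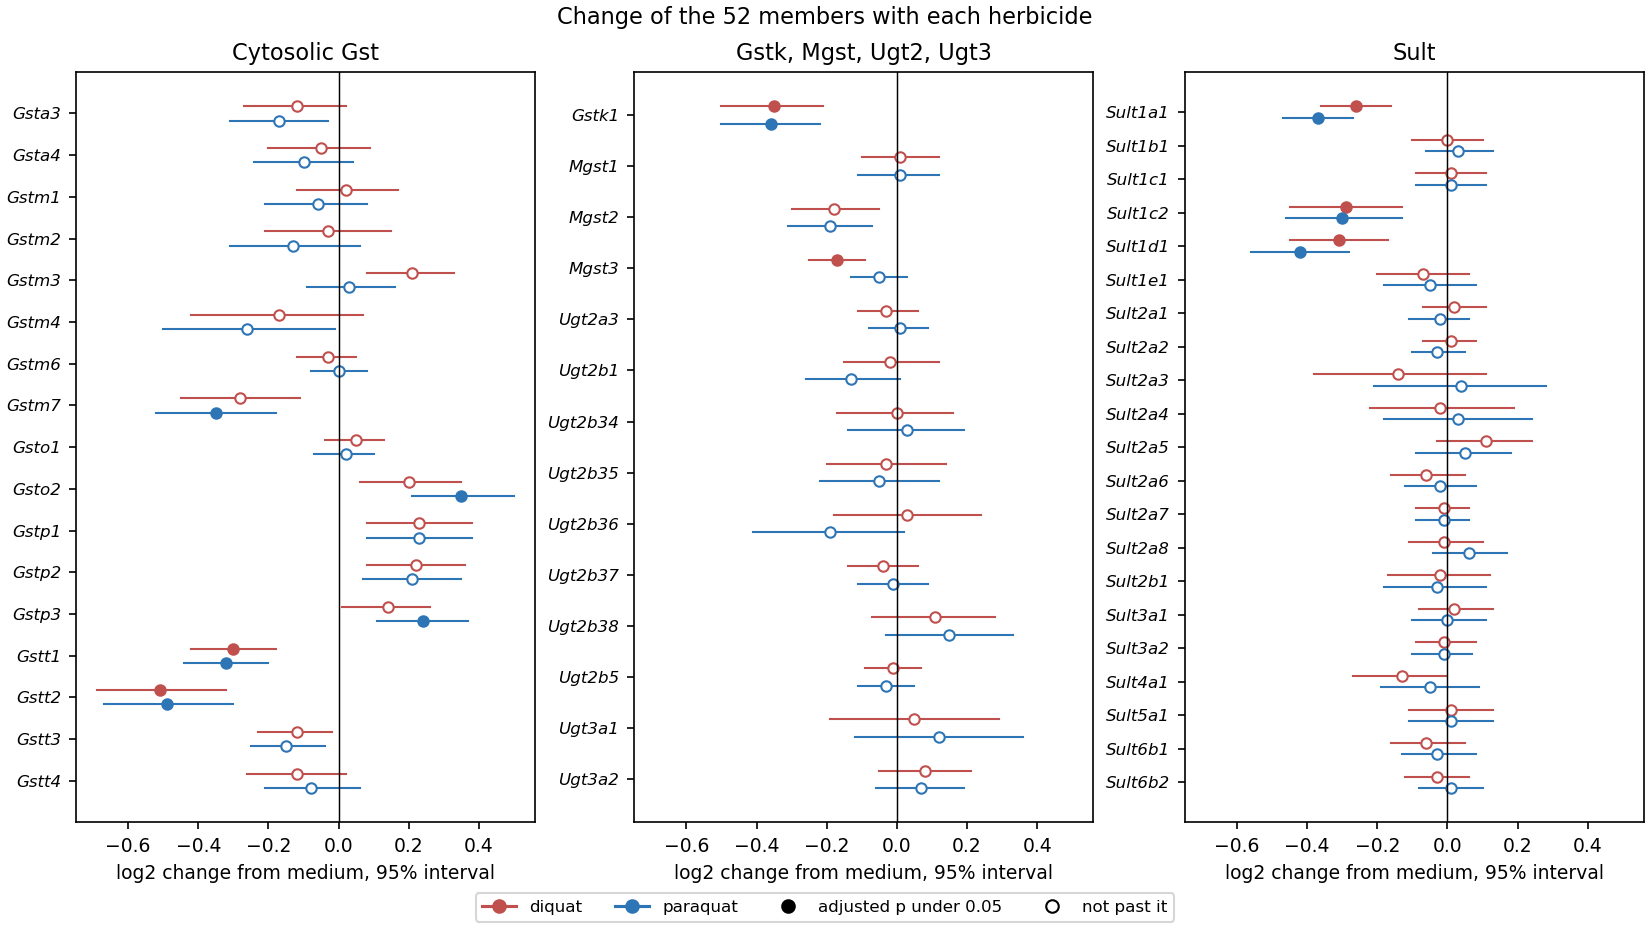
Log2 change from medium with 95% interval for all 52 genes, in 3 panels by family, with diquat in red and paraquat in blue and filled points for an adjusted p under 0.05. Filled points lie left of 0 for theta Gst genes, Gstm7, Gstk1, Mgst3 and 3 Sult1 genes and right of 0 for Gsto2 and Gstp3 with paraquat.

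Of the sulfotransferases, 3 of 21 fell with diquat and 3 with paraquat, in both cases Sult1a1, Sult1c2 and Sult1d1. That is 14.3% in each, against 2.89% of all genes called lower with diquat and 2.24% with paraquat. Sult1a1, the main enzyme for simple phenols, gave the smallest adjusted p of the 52 genes in both comparisons. Feature 17496354 read 10.52, 10.54 and 10.50 in medium, 10.26, 10.24 and 10.28 with diquat and 10.24, 10.12 and 10.09 with paraquat. No treated array reached the control range. The fall was 1.20-fold with diquat (log2 -0.26 ± 0.04, adjusted p 0.00578) and 1.29-fold with paraquat (log2 -0.37 ± 0.04, adjusted p 0.000969), and both calls were kept under all 15 settings.

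Sult1d1, which sulfates catecholamines and other small amines in the mouse, had a mean below the median of feature means. Feature 17449406 read 5.76, 5.59 and 5.52 in medium, 5.29, 5.31 and 5.35 with diquat and 5.29, 5.17 and 5.14 with paraquat. All treated arrays were lower, by -0.31 ± 0.06 with diquat (1.24-fold, adjusted p 0.0165) and -0.42 ± 0.06 with paraquat (1.34-fold, 0.00374). The diquat call was lost without control replicate 2 (0.0506) or diquat replicate 1 (0.0600), and a filter on dim genes left the gene out.

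Sult1c2, of the 1C subfamily, read 6.58, 6.62 and 6.42 in medium, 6.13, 6.25 and 6.37 with diquat and 6.34, 6.18 and 6.21 with paraquat (feature 17345989). The treated arrays were again all lower, though diquat replicate 3 came close to control replicate 3. The change was -0.29 ± 0.07 with diquat (adjusted p 0.0412) and -0.30 ± 0.07 with paraquat (0.0487). Both calls were near the threshold. The diquat call was lost in 8 of 15 settings, among them the replicate block (0.0778), centred arrays (0.0890), quantile normalization (0.0727), the compared groups alone (0.0934) and the fits without control replicate 1 (0.134), control replicate 2 (0.159), diquat replicate 1 (0.129) or diquat replicate 2 (0.0700). The paraquat call was lost in 9, among them the replicate block (0.0967), centred arrays (0.0747), quantile normalization (0.0510) and the fits without control replicate 1 (0.172), control replicate 2 (0.190), paraquat replicate 2 (0.184) or paraquat replicate 3 (0.175).

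The other 18 Sult genes changed by -0.14 to 0.11 with diquat and by -0.05 to 0.06 with paraquat. Their means lay between 4.26 and 5.86, at or below the median of feature means. They include the estrogen sulfotransferase Sult1e1, the cholesterol sulfotransferase Sult2b1 (-0.02 and -0.03) and 8 Sult2a genes, which sulfate bile acids and hydroxysteroids. The Sult2a genes form a single row of 8 copies between Bsph2 and Vmn1r90, with means of 4.26 to 5.61. They had 0 calls, against 7.02% of all genes called with diquat and 4.57% with paraquat. Sult2a8, for example, changed by -0.01 and 0.06. Whether their signal stood above background was not measured here, so a fall may not have been detectable.

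Against 7.02% of all genes called with diquat and 4.57% with paraquat, no glucuronosyltransferase was called among the 10 measured. Their changes lay between -0.04 and 0.11 with diquat and between -0.19 and 0.15 with paraquat, with smallest adjusted p-values of 0.466 and 0.362. Ugt2b34, the only one above the median, read 9.07, 9.11 and 8.92 in medium, 9.10, 8.93 and 9.06 with diquat and 9.21, 9.00 and 8.97 with paraquat. The groups overlapped throughout, with changes of 0.00 (interval -0.17 to 0.16) and 0.03 (-0.14 to 0.19). The other 9 had means of 4.42 to 5.68, below the median of feature means, so a change in them may not have been detectable. Calls were rare at such levels over all genes. Of the 1558 genes called with diquat, 1500 lay above that median, as did 988 of the 1014 called with paraquat. Ugt2b36 changed by 0.03 and -0.19, Ugt2b1 by -0.02 and -0.13, Ugt2b5 by -0.01 and -0.03, and Ugt2b38 by 0.11 and 0.15. Ugt3a2, which uses a sugar donor other than glucuronic acid, changed by 0.08 and 0.07.

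Called genes often stood beside uncalled copies. The longest row of these families holds 13 genes between Ythdc1 and Csn1s1, 10 Ugt2 genes followed by Sult1b1, Sult1d1 and Sult1e1. Of its 11 genes with a feature of their own, Sult1d1 alone was called, and its neighbours Sult1b1 and Sult1e1 were not. Over all genes, 7.02% were called with diquat and 4.57% with paraquat. Sult1c2 was called beside an uncalled Sult1c1, and Gsto2 beside an uncalled Gsto1. Sult1b1, Sult1e1 and Sult1c1 had means of 4.72, 4.78 and 5.20, below the median of feature means. A change in them may not have been detectable. Gene order is that of RefSeq on GRCm38.p6, and distances were not used.

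**Figure D3:**
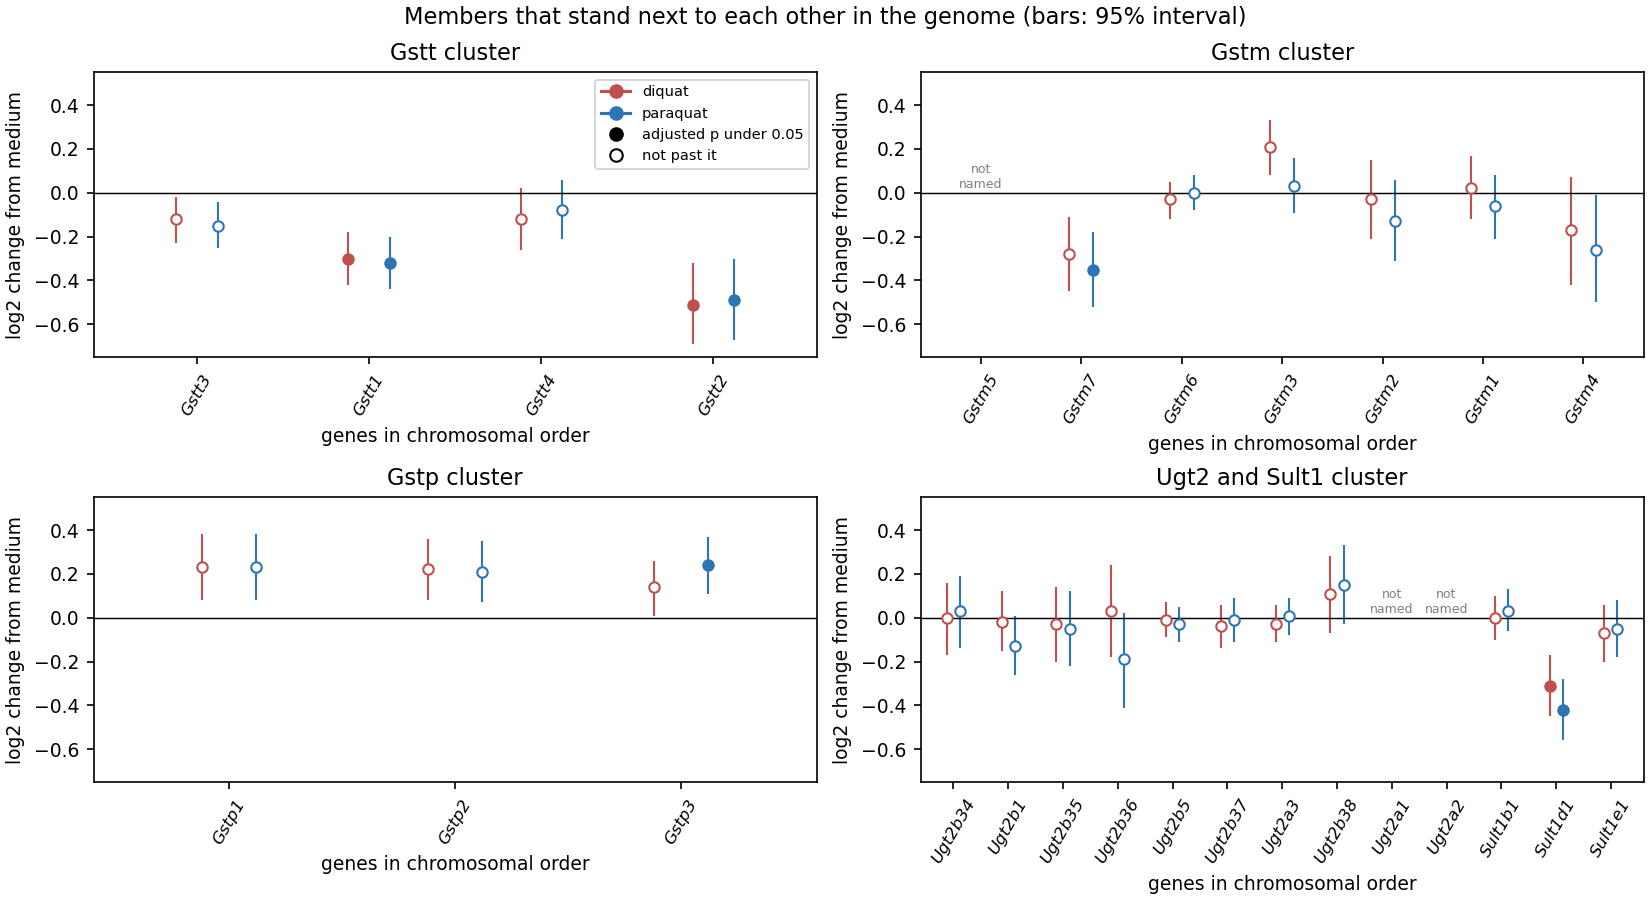
Log2 change from medium of neighbouring family genes, in RefSeq order along the horizontal axis without distances, with diquat in red, paraquat in blue and filled points for an adjusted p under 0.05. In the 13-gene Ugt2 and Sult1 row the filled points are those of Sult1d1, while in the theta row Gstt1 and Gstt2 are filled and Gstt3 and Gstt4 are open.

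The treatments were also set against each other as dosed. None of the 52 genes and 0% of all genes passed in limma's test, with a smallest adjusted p of 0.372 among the 52, and 5 (9.62%) passed at an unadjusted p under 0.05, against 10.7% of all genes, so their share was near the background. These were Gstm3, Gsto2, Mgst3, Sult1a1 and Ugt2b36. The differences, paraquat minus diquat, ran from -0.22 to 0.17. Gstm3 was lower with paraquat by -0.17 (interval -0.30 to -0.05, adjusted p 0.387) and Sult1a1 by -0.11 (-0.21 to -0.01, 0.439). Mgst3 was higher by 0.12 (0.04 to 0.20, 0.372) and Gsto2 by 0.15 (0.01 to 0.29). Arrays did not overlap between the treatments for 4 genes, with Gsto2, Gstp3 and Mgst3 higher and Gstm3 lower with paraquat, against 10.5% of all genes, 5.36% higher and 5.18% lower. The intervals of single genes reached from -0.44 to 0.42, so a difference of that size is not bounded out for the least precise of them. The calls that appear with a single herbicide are therefore not shown to differ between the herbicides.

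Genes that feed, regulate or follow conjugation were read from a list of 61, of which 57 were measured. The list was chosen with earlier results of these data known. With diquat 9 rose and 6 fell (26.3%, against 7.02% of all genes), and with paraquat 5 rose and 5 fell (17.5%, against 4.57%). Of all genes above the median of feature means, where many of the 57 lay, 11.4% were called with diquat and 7.54% with paraquat. The median of the 57 was -0.04 with diquat and -0.02 with paraquat. The diquat count was 9 without control replicate 1 and 8 without control replicate 2. The paraquat count was 6 without control replicate 1, control replicate 2 or paraquat replicate 2, and 17 with array weights.

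Of 6 exporters of conjugates, 3 rose with diquat and 2 with paraquat (50% and 33.3%, against 4.13% and 2.33% of all genes). Abcc4, a pump of the sinusoidal membrane, changed by 0.57 and 0.46, and Abcc2, the pump of the bile canaliculus, by 0.29 and 0.25. Abcc1, which exports glutathione conjugates, rose by 0.26 with diquat and was not called with paraquat (0.12). Of 6 genes for the supply of the sulfate donor, 2 fell in each comparison. That is 33.3%, against 2.89% of all genes called lower with diquat and 2.24% with paraquat. Papss1, a PAPS synthase, changed by -0.13 and -0.23, and Slc26a2, a sulfate importer, by -0.27 and -0.17. The diquat call of Papss1 (adjusted p 0.0491) was lost in 11 of 15 settings (up to 0.239) and the paraquat call of Slc26a2 (0.0419) in 9 (up to 0.154), in both cases also with the replicate block and with any control array left out. Of 4 glutathione supply genes 1 was called, with diquat (25%, against 7.02% of all genes). This was Gss, glutathione synthetase, which rose by 0.24 with diquat (adjusted p 0.0142) and read 0.19 with paraquat (0.0592). Its diquat call was lost without control replicate 2 (0.0631) or 3 (0.0518). Gclc (0.04 and -0.01) and Gclm (0.00 and -0.10), the subunits of the rate-limiting enzyme, were not called.

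In the supply of UDP-glucuronate Slc35b1, a nucleotide carrier of the endoplasmic reticulum, fell with diquat (-0.15), and the other 3 genes were not called. That is 25% of these genes called with diquat, against 7.02% of all genes. Ephx2, soluble epoxide hydrolase, fell with both (-0.33 and -0.32), while Nqo1, a quinone reductase, read -0.04 and 0.11. Nqo1 had a mean of 5.48, below the median of feature means, so a change in it may not have been detectable. Acy3, which deacetylates mercapturates, fell with paraquat (-0.22). These calls depended on the setting: that of Slc35b1 was lost in 8 of 15 (up to 0.149), that of Acy3 in 7 (up to 0.154), and those of Ephx2 in 2 with diquat (without control replicate 1 or 2, up to 0.0694) and 5 with paraquat (up to 0.102). None of the 9 other conjugating enzymes was called in limma's test, with 0 and 3 at an unadjusted p under 0.05 for diquat and paraquat. Over all genes, 7.02% and 4.57% were called, and 21.6% and 15% passed at that unadjusted p. The nearest of the 9 was Tpmt, thiopurine methyltransferase, at -0.32 with paraquat (adjusted p 0.0572).

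Among 15 regulators, 5 rose and 2 fell with diquat, and 3 rose and 1 fell with paraquat. With diquat that is 33.3% higher and 13.3% lower, against 4.13% and 2.89% of all genes. With paraquat it is 20% and 6.67%, against 2.33% and 2.24%. Bach1, which represses antioxidant response elements, changed by 0.65 and 0.47. The small MAF partners Mafk (0.45 and 0.38) and Mafg (0.35 and 0.27) rose with both, and Maff rose with diquat (0.38) and missed the threshold with paraquat (0.35, adjusted p 0.0546). Ahr rose with diquat (0.25) and read 0.08 with paraquat. Ppara fell with both (-0.25 and -0.29), and Hnf4a passed narrowly with diquat (-0.19, adjusted p 0.04999) and lost that call in 9 of 15 settings (up to 0.175), among them every fit without 1 array. The diquat calls of Ahr and Maff were lost in 5 (up to 0.0971) and 4 settings (up to 0.114) and the paraquat call of Mafg in 5 (up to 0.111), in each case both without control replicate 1 and without control replicate 2. Nfe2l2, the gene of NRF2, read 0.05 and 0.00, and Keap1, its inhibitor, 0.07 and -0.01. The xenobiotic receptors Nr1i2 (-0.20 and -0.15) and Nr1i3 (-0.10 and 0.02) were not called. These are transcript levels and do not measure the activity of the proteins.

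**Figure D4:**
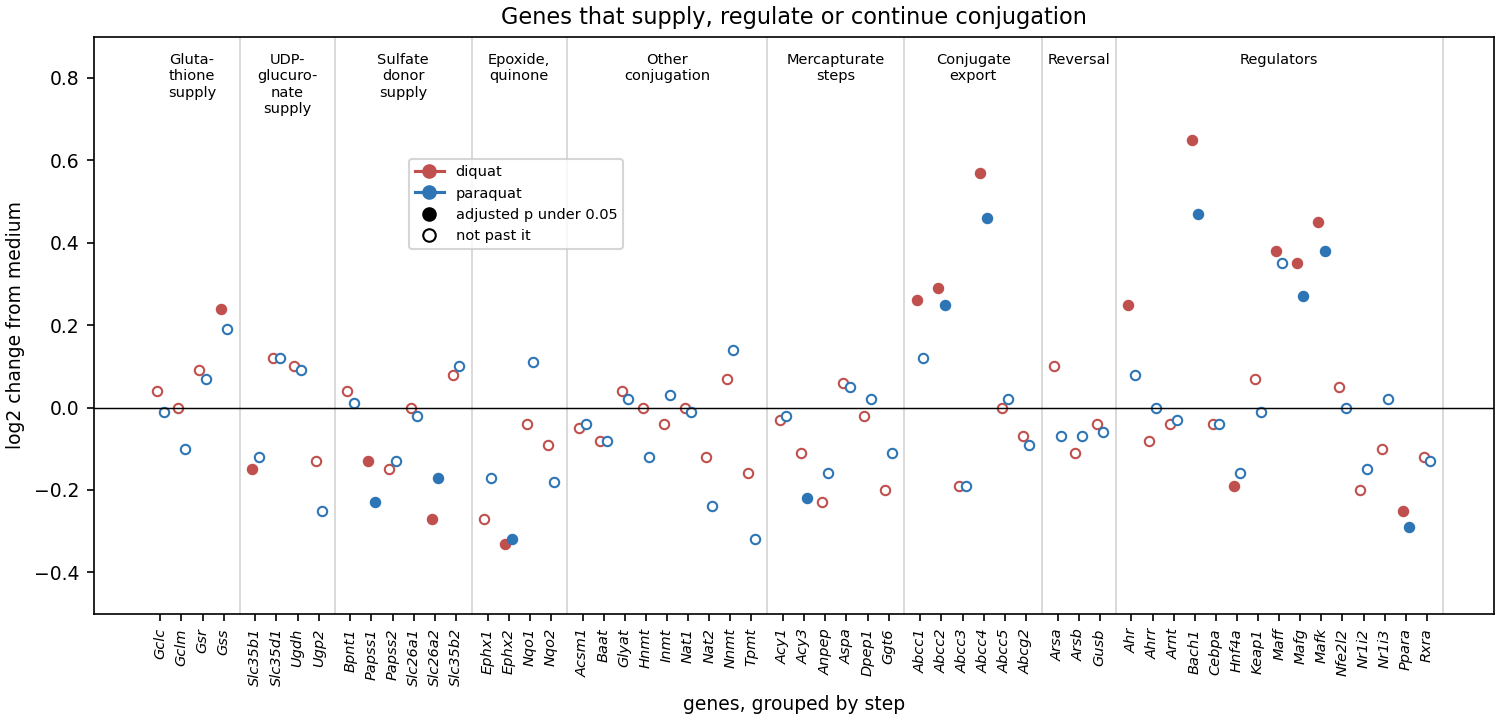
Log2 change from medium of the 57 measured genes around conjugation, grouped by step along the horizontal axis, with diquat in red, paraquat in blue and filled points for an adjusted p under 0.05. The highest points are Bach1 (0.65 and 0.47) and Abcc4 (0.57 and 0.46), and the lowest filled points are Ephx2 (-0.33 and -0.32).

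Marker lists were read beside these results, as means over each list. The mean of the 13 hepatocyte markers was 8.54 to 8.61 in the control arrays, 8.33 to 8.38 with diquat and 8.35 to 8.49 with paraquat, with no overlap between controls and treated arrays. Within that list Cps1 (8.68 in medium, 7.93 and 7.88), Fga (8.89, 8.34 and 8.23) and Ttr (11.38, 11.04 and 11.06) had lower means with both. Tat (8.85, 8.33 and 8.90) had a lower mean with diquat and not with paraquat. Alb stayed at 12.73 and Asgr1 read 5.65, 5.64 and 5.65. The mean of the 6 bile duct and progenitor markers was 8.0 to 8.08 in controls, 8.21 to 8.23 with diquat and 8.27 to 8.31 with paraquat, but its genes went both ways. Krt23 (6.42, 7.27 and 7.49) and Sox9 (10.20, 10.65 and 10.59) had higher means with both, Krt7 (8.96, 8.67 and 8.85) and Krt19 (8.31, 8.15 and 8.25) lower ones, and Epcam read 7.66, 7.68 and 7.67. Immune markers overlapped between controls (6.19 to 6.27) and diquat (6.19 to 6.30) and reached 6.28 to 6.34 with paraquat. Their genes went both ways, with Cd68 at 7.62, 8.02 and 7.98, Csf1r at 6.18, 6.06 and 6.23 and Ptprc at 5.38, 5.28 and 5.29. Endothelial markers were 5.78 to 5.85 in controls, 5.67 to 5.77 with diquat, without overlap, and 5.78 to 5.85 with paraquat. Stellate markers overlapped throughout, at 6.83 to 6.91, 6.74 to 6.89 and 6.81 to 6.87. Their part in the results on conjugation genes was not tested.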

How the data were processed

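The deposited values are log2 signals of 9 Affymetrix arrays, made by the authors with Affymetrix Expression Console 1.1 and RMA (background correction, quantile normalization, probe summary), per the submitters' processing notes. The table holds 34472 features, 23521 with 1 symbol, 1814 with several and 9137 with none. Genes were named from features with 1 symbol, and the feature with the highest mean stood for a gene, which left 22180 genes. Of the features with 1 symbol, 23328 were matched to RefSeq by Entrez identifier, with 0 symbols changed.

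All arrays entered 1 fit in limma 3.58.1 (R 4.3.3; lmFit and eBayes) with 1 mean per group and no further normalization or covariate. Adjusted p-values are Benjamini-Hochberg values over the 22180 genes, called under 0.05, and all tests are two-sided. Errors are limma's standard errors and intervals are 95% intervals. The fit was tested on simulated data. A count of settings refers to 15 alternatives for each comparison: 9 changes of the fit and the omission of each array of the compared groups in turn.

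Groups and replicate numbers came from the sample titles, and some descriptions repeat a number. Same-numbered arrays did not deviate together (r from -0.192 to 0.198 over 9 pairs), so the numbers were not taken to pair the samples. The conjugation genes, the related list and the markers were chosen with earlier results of these data known. Named with values were all genes past the test, in each family the 3 brightest and the 2 with the largest change in each treatment, and a short fixed list. Of the related genes, those past the test and 5 fixed regulators were named. Gstp2, Gstt3, Gstt4, Gstm2, Gstm4, Gstm6, Gclc, Gclm, Nqo1 and Tpmt, and genes named only for a motif or as neighbours, were added after their values were seen. Promoter windows are from RefSeq on GRCm38.p6. Close copies can share probes, so values of close copies within a class are uncertain. The small number of arrays limits the precision.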

Additional observations from a re-analysis of the deposited data

Results flagged for a closer look

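A signal appeared in alpha-class Gst features that carry several symbols and so belong to no gene of the report. Feature 17519658, annotated to Gsta1, Gsta2 and Gm3776, read 7.37, 7.43 and 7.44 in medium, 7.94, 8.02 and 7.74 with diquat and 7.92, 8.02 and 7.89 with paraquat. It was higher on every treated array, by 0.49 ± 0.07 (SE) on the log2 scale with diquat (adjusted p 0.00399 in limma over all 34472 features) and 0.53 ± 0.07 with paraquat (0.00315). Feature 17519673, annotated to Gsta1, Gsta2, Gm3776 and Gm10639, read 9.21, 9.15 and 9.24 in medium, 9.63, 9.90 and 9.81 with diquat and 9.73, 9.61 and 9.61 with paraquat. It was higher by 0.58 with diquat (1.49-fold, adjusted p 0.00138) and 0.45 with paraquat (1.37-fold, 0.00707). These rises exceed those of every conjugation gene with a feature of its own. Gsta1 and Gsta2 encode the alpha transferases best known as antioxidant-inducible in mouse liver, and which of the annotated genes gave the signal cannot be told apart here.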

How the results depend on the processing

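Over the alternatives, the count of conjugation genes called with diquat ranged from 6 to 10 against 7, and from 4 to 8 when an array was left out, with 4 without control replicate 2. With paraquat it ranged from 6 to 11 against 9, and from 5 to 8 when an array was left out. Between the herbicides it was 0 under every alternative run. With the replicate block the counts were 6 and 7, and those of the related genes 11 and 9. Related genes called with diquat numbered 11 to 18 against 15 across the changes of the fit, and 8 to 15 when an array was left out. With paraquat there were 8 to 14 against 10, but 17 with array weights, and 6 to 12 when an array was left out. Of 41 called results for named genes, 21 kept their call under every alternative that could be fitted, and 110 of 613 comparisons lost it. Of 77 uncalled results, 28 of 1133 comparisons gained a call, and 0 called values changed sign. Over all genes, centring moved the share of diquat calls that were higher from 58.9% to 78.2% and quantile normalization moved it to 49.9%. For paraquat the shares were 51%, 57.5% and 49.2%. The causes of these changes were not tested. No detection calls or scanner files were used, so signal over background limits the 30 dim genes.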

Other observations

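The other features with several symbols in these families gave a fall and several values that were not called. The feature annotated to Gstz1, the zeta transferase that isomerizes maleylacetoacetate in tyrosine breakdown, and to Pomt2 read 9.01, 8.92 and 8.81 in medium, 8.57, 8.50 and 8.53 with diquat and 8.63, 8.50 and 8.49 with paraquat. All treated arrays lay below all control arrays, by -0.38 with diquat (adjusted p 0.00616 in limma over 34472 features) and -0.37 with paraquat (0.00807). Another alpha feature, 17529017, annotated to Gsta1, Gsta2 and Gm10639, read 0.10 higher with each herbicide and was not called (adjusted p 0.348 and 0.493). Its control mean was 4.86, below the median of feature means, 6.0, so a change in it may not have been detectable. The feature shared by Gstp1 and Gstp2 changed by 0.19 and 0.07, and that shared by Gstm5 and 4933431E20Rik by 0.06 and -0.08. Ugt2a1 with Ugt2a2 changed by -0.02 and 0.03. The features of the Ugt1a locus, whose genes share their last exons, changed by -0.03 and -0.01 and by -0.02 and 0.00, and neither was called. Their control means were 6.14 and 5.98, near the median of feature means.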
